A study of Homo sapiens with 20 samples.

Results

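The keratin genes are taken here as the genes named KRT followed by a number and at most 1 letter, without the keratin-associated proteins and the pseudogenes. Of the 19775 genes on the array that could be named from a probe set with a single gene symbol, 44 were keratins, 24 of type I and 20 of type II. RefSeq lists 55 protein-coding keratins by this rule, and the other 11 (KRT6A, KRT6B, KRT6C, KRT17, KRT26, KRT28, KRT34, KRT39, KRT81, KRT82 and KRT86) were not analysed here. The 44 genes had 56 probe sets, and each gene was read from its brightest probe set by mean over all 20 arrays, which mattered for the 9 genes with more than 1. By textbook role, 5 were simple keratins, 13 were keratins of stratified epithelia (3 basal, 4 suprabasal, 3 mucosal, 2 corneal and 1 stress keratin), 7 belonged to the inner root sheath, 12 to the hair and its cortex or cuticle, and 7 were placed in none of these classes.

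Keratins are the intermediate filament proteins of epithelial cells. A filament is built from obligate pairs of 1 type I and 1 type II protein, and its ends are held by desmosomes and hemidesmosomes. Simple keratins such as KRT8 and KRT18 are the pair of single-layered and glandular epithelia. KRT5 and KRT14 are the pair of basal cells in stratified epithelia and of the basal layer of the breast, where the luminal layer carries KRT7, KRT8, KRT18 and KRT19. Type I genes lie in a cluster on chromosome 17 and type II genes in a cluster on chromosome 12, at whose edge KRT18 sits as the type I exception. Among the genes measured, 23 type I genes lay on chromosome 17 and 1 on chromosome 12, all 20 type II genes lay on chromosome 12, and RefSeq placed 0 other protein-coding genes between KRT8 and KRT18.

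The cells were MII cells, also called MCF10-T1k, a RAS-transformed derivative of a human mammary epithelial line, and 1 array was run per sample. Cells received siRNAs against APC and TAZ together (siAPC/siTAZ), APC alone (siAPC), beta-catenin and TAZ together (sibcat/siTAZ), beta-catenin alone (sibcat) or, as control, GFP (siGFP), with 4 biological replicates (A to D) in each group. APC holds together the destruction complex that keeps beta-catenin low, and TAZ (gene symbol WWTR1) is the coactivator that, with YAP, binds TEAD factors. No group received TAZ siRNA alone, so the TAZ siRNA was compared only within the 2 single depletions, and all 5 groups share the RAS-transformed background of 1 line.

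The siRNA targets followed the labels. WWTR1 averaged 7.98 ± 0.05, 10.64 ± 0.04, 8.41 ± 0.07, 10.62 ± 0.06 and 11.05 ± 0.12 in the siAPC/siTAZ, siAPC, sibcat/siTAZ, sibcat and siGFP groups (log2 signal, SD, n = 4 each). APC changed by -0.88 in siAPC against siGFP, and CTNNB1, the beta-catenin gene, by -1.33 in sibcat against siGFP. Each target was lower still when TAZ siRNA was added: APC changed by a further -0.46 (SE 0.05, adjusted p = 5.1e-07) and CTNNB1 by a further -1.41 (SE 0.05, adjusted p = 1.5e-14). The comparisons of a combined with a single depletion therefore also differ in the level of the first target, and WWTR1 itself changed by -0.41 in siAPC and -0.43 in sibcat against siGFP.

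The median signal of an array was 5.07 to 5.11 (log2), which gives a yardstick for a weak signal. The 4 epithelial markers measured (CDH1, EPCAM, DSP and ITGB4) lay above it on all arrays, with means over the list of 10.93 to 10.99 in siAPC/siTAZ, 11.07 to 11.10 in siAPC, 10.77 to 10.79 in sibcat/siTAZ, 10.98 to 11.00 in sibcat and 11.52 to 11.57 in siGFP. The mean over 6 fibroblast markers was 7.48 to 7.57, 5.96 to 6.06, 7.02 to 7.17, 6.02 to 6.11 and 6.34 to 6.53 in the same order. Of these, 4 of 6 were called higher in siAPC/siTAZ against siAPC and 3 of 6 in sibcat/siTAZ against sibcat, where 20.7% and 18% of all genes were called higher. The 4 include COL1A2, which changed by 0.31 at weak means of 4.81 and 4.50. DCN and COL1A1 were strong on all arrays, at 11.29 to 12.82 and 8.52 to 11.26, and changed with TAZ siRNA by 1.18 and 2.68 in the siAPC background and by 0.91 and 1.82 in the sibcat background. COL3A1 averaged 9.86 in siAPC/siTAZ against 5.08 in siAPC, and 8.16 in sibcat/siTAZ against 4.55 in sibcat. COL1A2, PDGFRA and LUM read at most 5.00, 4.04 and 2.98 on any array, all below the array median. The means over the 3 leukocyte and 4 endothelial markers measured were at most 4.35 and 4.95 on any array. CD3E of the leukocyte list and VWF of the endothelial list lay near the array median, at group means of 5.07 to 5.25 and 4.92 to 5.15. Of the endothelial markers, PECAM1 lay above the array median in the group means, at 5.74, 5.24, 6.73, 6.65 and 6.54 in the same order of groups, with a change of -1.31 in siAPC against siGFP and 0.50 in siAPC/siTAZ against siAPC. KDR changed by -1.02 in siAPC and -1.08 in sibcat against siGFP, at means of at most 3.99. The part of these genes in the keratin results was not tested. Over all genes, sibcat array D lay farthest from the mean of the rest of its group (143 of 19775 genes by more than 0.5, against 31 to 122 on the other 19 arrays), and it stood above the other sibcat arrays for several keratins, so values without it are given where it matters. That array was singled out after its values were seen.

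Among the 44 keratins, 24 had group means below the lowest array median in all 5 groups, 16 had a mean over all arrays of at least 5, and 8 had a mean of at least 7. Those 8 were KRT5, KRT7, KRT8, KRT10, KRT14, KRT15, KRT16 and KRT18. A gene was called when its limma adjusted p (Benjamini-Hochberg over all 19775 genes) was under 0.05, and 24 keratins were called in at least 1 comparison between 2 groups. Single comparisons of this kind called 31.7% to 47.2% of all genes. The share of all genes called in at least 1 was not counted, so the 24 say nothing particular about the family. The other 20 keratins, all but 1 of them weak in every group, changed by -0.24 to 0.19 in these comparisons.

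In siAPC against siGFP, 9 keratins were higher and 8 lower (20.5% and 18.2% of 44), against 21.3% and 18.7% of all genes. In sibcat against siGFP, 6 were higher and 10 lower (13.6% and 22.7%), against 21.4% and 15.7% of all genes. Both directions together, 38.6% of keratins were called in siAPC and 36.4% in sibcat, against 40% and 37.1% of all genes. These totals were near those of all genes and say nothing particular about the family. Adding TAZ siRNA gave 5 higher and 11 lower in siAPC/siTAZ against siAPC (11.4% and 25%), where 20.7% and 22.8% of all genes were called. In sibcat/siTAZ against sibcat 4 were higher and 8 lower (9.09% and 18.2%), where 18% and 13.7% of all genes were called. Against siGFP, siAPC/siTAZ had 4 keratins higher and 14 lower (9.09% and 31.8%, against 23% and 24.3% of all genes). For sibcat/siTAZ against siGFP the split was 1 higher and 17 lower (2.27% and 38.6%, against 25.4% and 19.5% of all genes). The totals for the comparisons with TAZ siRNA groups, in the order given, were 36.4%, 27.3%, 40.9% and 40.9% of keratins. For all genes they were 43.5%, 31.7%, 47.2% and 44.9%, so keratins were not called more often. These comparisons share arrays: siGFP is the control of 4 of them, and the siAPC and sibcat arrays enter both a comparison with siGFP and one with a TAZ siRNA group.

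In the 6 comparisons that follow first, larger changes were more frequent among keratins than among all genes, a share chosen after values were seen. Called changes of at least 2-fold were seen for 3 keratins in siAPC against siGFP (6.82%, against 3.6% of all genes) and 3 in sibcat against siGFP (6.82%, against 2.44%). They were seen for 9 in siAPC/siTAZ against siAPC (20.5%, against 4.37%) and 4 in sibcat/siTAZ against sibcat (9.09%, against 2.31%). Of the 9, KRT4, KRT33A, KRT33B and KRT80 had siAPC/siTAZ means below the array median (4.81, 4.18, 3.97 and 4.66). KRT222 lay below it in both groups (4.74 and 3.29), and the second KRT4 probe set was not called (-0.13), so these sizes are uncertain. KRT4 was also among the 4 in sibcat/siTAZ against sibcat, where its second probe set was not called (-0.23). Against siGFP there were 8 in siAPC/siTAZ (18.2%, against 5.61%) and 6 in sibcat/siTAZ (13.6%, against 3.67%). Of the 8, KRT4, KRT19, KRT80 and KRT222 had siAPC/siTAZ means below the array median (4.81, 4.59, 4.66 and 4.74). The second probe sets of KRT4 and KRT19 were not called there (-0.09 and -0.16). Of the 6 in sibcat/siTAZ, KRT13, KRT19 and KRT23 had means below it (4.23, 4.38 and 4.22). These sizes are likewise uncertain. Between the 2 single depletions, siAPC against sibcat, there were 3 (6.82%, against 1.67%). In siAPC/siTAZ against sibcat/siTAZ there were also 3 (6.82%, against 5.82%), near the share of all genes. These shares are descriptions, and no test over the family was made.

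**Figure D1:**
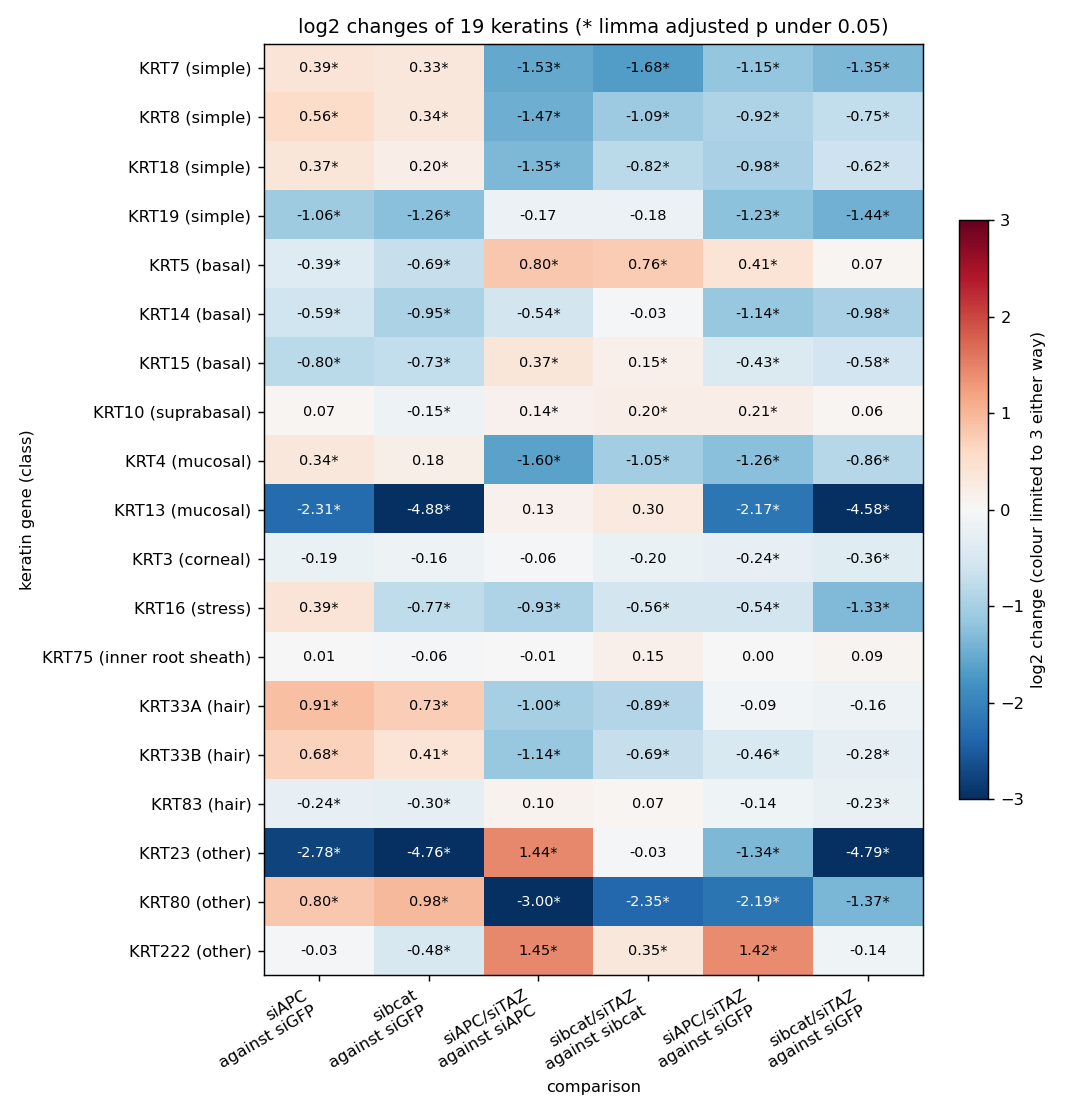
Log2 changes of the 19 keratins described with array values (rows, grouped by class) in 6 comparisons (columns), with the change written in each cell, a star for a limma adjusted p under 0.05 and colour limited to 3 either way. KRT7, KRT8, KRT18, KRT33A, KRT33B and KRT80 are higher in both single depletions against siGFP and lower in both comparisons that add TAZ siRNA, while KRT13 and KRT23 are the most strongly lower in the single depletions.

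The simple keratins split. KRT7, KRT8 and KRT18 were higher after either single depletion and then fell below their siGFP level once TAZ siRNA was added, whereas KRT19 was lower in the 4 other groups than in siGFP. Bulk RNA cannot tell fewer cells of a type from less RNA per cell, here and in the values that follow. KRT7 read 10.98, 10.74, 10.76 and 10.70 on the siAPC/siTAZ arrays and 12.32, 12.39, 12.29 and 12.32 on the siAPC arrays. On the sibcat/siTAZ arrays KRT7 read 10.62, 10.53, 10.57 and 10.64, on the sibcat arrays 12.15, 12.13, 12.22 and 12.58, and on the siGFP arrays 11.84, 11.95, 11.98 and 11.99. The siAPC and sibcat arrays all lay above the siGFP arrays, and the arrays with TAZ siRNA all lay below them. KRT7, the type II partner of luminal and ductal cells, changed by 0.39 (SE 0.08, adjusted p = 0.00045) in siAPC and 0.33 (SE 0.08, adjusted p = 0.00233) in sibcat against siGFP. With TAZ siRNA it changed by -1.53 (SE 0.08, adjusted p = 3.5e-12) in the siAPC background and -1.68 (SE 0.08, adjusted p = 1.8e-12) in the sibcat background, falls of 2.9-fold and 3.2-fold. The 3 weaker KRT7 probe sets (means 5.90, 3.86 and 2.59) were also called lower in siAPC/siTAZ against siAPC (-0.25, -0.61 and -0.28). In sibcat/siTAZ against sibcat they gave -0.20, -0.74 and -0.20, with limma adjusted p of 0.11, 0.00077 and 0.11, so only 1 was called. All of these falls were smaller than those of the strongest probe set. None of the 3 was called in siAPC or sibcat against siGFP, and 1 of them read -0.03 and -0.12 there. The rise of KRT7 in the single depletions thus rests on its strongest probe set, and without sibcat array D it was 0.23 in sibcat.

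KRT8 read 10.13, 9.94, 10.07 and 9.98 on the siAPC/siTAZ arrays and 11.50, 11.57, 11.48 and 11.46 on the siAPC arrays. The sibcat/siTAZ arrays gave 10.22, 10.17, 10.18 and 10.21, the sibcat arrays 11.14, 11.11, 11.30 and 11.58, and the siGFP arrays 10.87, 10.85, 11.05 and 11.01. KRT8, the type II member of the simple pair, was higher on every siAPC and sibcat array and lower on every array with TAZ siRNA than on any siGFP array. Its changes were 0.56 (SE 0.08, adjusted p = 7.1e-06) in siAPC and 0.34 (SE 0.08, adjusted p = 0.00167) in sibcat against siGFP. Adding TAZ siRNA changed it by -1.47 (SE 0.08, adjusted p = 5.1e-12) and -1.09 (SE 0.08, adjusted p = 1e-09) in the siAPC and sibcat backgrounds. Without sibcat array D, which read highest of its group, the sibcat change was 0.24 (adjusted p = 0.0036).

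KRT18 read 11.75, 11.75, 11.75 and 11.70 on the siAPC/siTAZ arrays and 13.08, 13.12, 13.05 and 13.09 on the siAPC arrays. It read 12.14, 12.05, 12.10 and 12.08 with sibcat/siTAZ, 12.92, 12.86, 12.97 and 12.90 with sibcat, and 12.65, 12.68, 12.77 and 12.76 with siGFP. KRT18, its type I partner, had the same order of groups and replicate SDs of at most 0.06. It changed by 0.37 (SE 0.04, adjusted p = 8.6e-08) and 0.20 (SE 0.04, adjusted p = 0.00023) in siAPC and sibcat against siGFP, and by -1.35 (SE 0.04, adjusted p = 2.9e-16) and -0.82 (SE 0.04, adjusted p = 1e-12) when TAZ siRNA was added. Against siGFP, siAPC/siTAZ stood at -0.92 for KRT8 and -0.98 for KRT18, and sibcat/siTAZ at -0.75 and -0.62. No group overlapped siGFP for either gene.

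KRT19 read 4.74, 4.56, 4.54 and 4.52 on the siAPC/siTAZ arrays and 4.91, 4.66, 4.58 and 4.87 on the siAPC arrays. In the sibcat/siTAZ group the values were 4.32, 4.43, 4.35 and 4.41, in the sibcat group 4.78, 4.60, 4.11 and 4.74, and in the siGFP group 5.81, 5.79, 5.93 and 5.75. KRT19, a luminal type I keratin that can form filaments in place of KRT18, lay above the array median in siGFP and below it in the other 4 groups. It changed by -1.06 (SE 0.11, adjusted p = 1.2e-07) in siAPC and -1.26 (SE 0.11, adjusted p = 1.5e-08) in sibcat against siGFP. TAZ siRNA moved it by -0.17 (SE 0.11, adjusted p = 0.255) and -0.18 (SE 0.11, adjusted p = 0.255), and neither was called. Without sibcat array C, the lowest of its group, the change in the sibcat background was called (adjusted p = 0.0026). Its second, weaker probe set (mean 3.97) was not called in siAPC or sibcat against siGFP (-0.12 and -0.04). With TAZ siRNA that probe set was called lower in the sibcat background (-0.36, limma adjusted p = 0.002), but not in the siAPC background (-0.04). Against siGFP it was called lower in sibcat/siTAZ (-0.40, limma adjusted p = 0.00042), but not in siAPC/siTAZ (-0.16). The KRT19 probe sets thus differed on the single depletions and on TAZ siRNA in the sibcat background. KRT20, the gut keratin, averaged at most 2.94 in any group.

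KRT80 read 4.73, 4.74, 4.50 and 4.66 on the siAPC/siTAZ arrays and 7.74, 7.62, 7.57 and 7.68 on the siAPC arrays. On the sibcat/siTAZ arrays KRT80 read 5.55, 5.34, 5.68 and 5.36, on the sibcat arrays 7.93, 7.75, 7.77 and 7.87, and on the siGFP arrays 6.83, 6.94, 6.82 and 6.81. KRT80, a type II keratin found near desmosomes in many epithelia, was the keratin with the largest TAZ siRNA change in both backgrounds. It changed by 0.80 (SE 0.07, adjusted p = 1.7e-08) and 0.98 (SE 0.07, adjusted p = 1.3e-09) in siAPC and sibcat against siGFP. With TAZ siRNA it changed by -3.0 (SE 0.07, adjusted p = 3.6e-17) and -2.35 (SE 0.07, adjusted p = 2.3e-15), and the second of these is 5.09-fold lower. The siAPC/siTAZ mean of 4.66 lay below the array median, so no fold is given for the first.

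**Figure D2:**
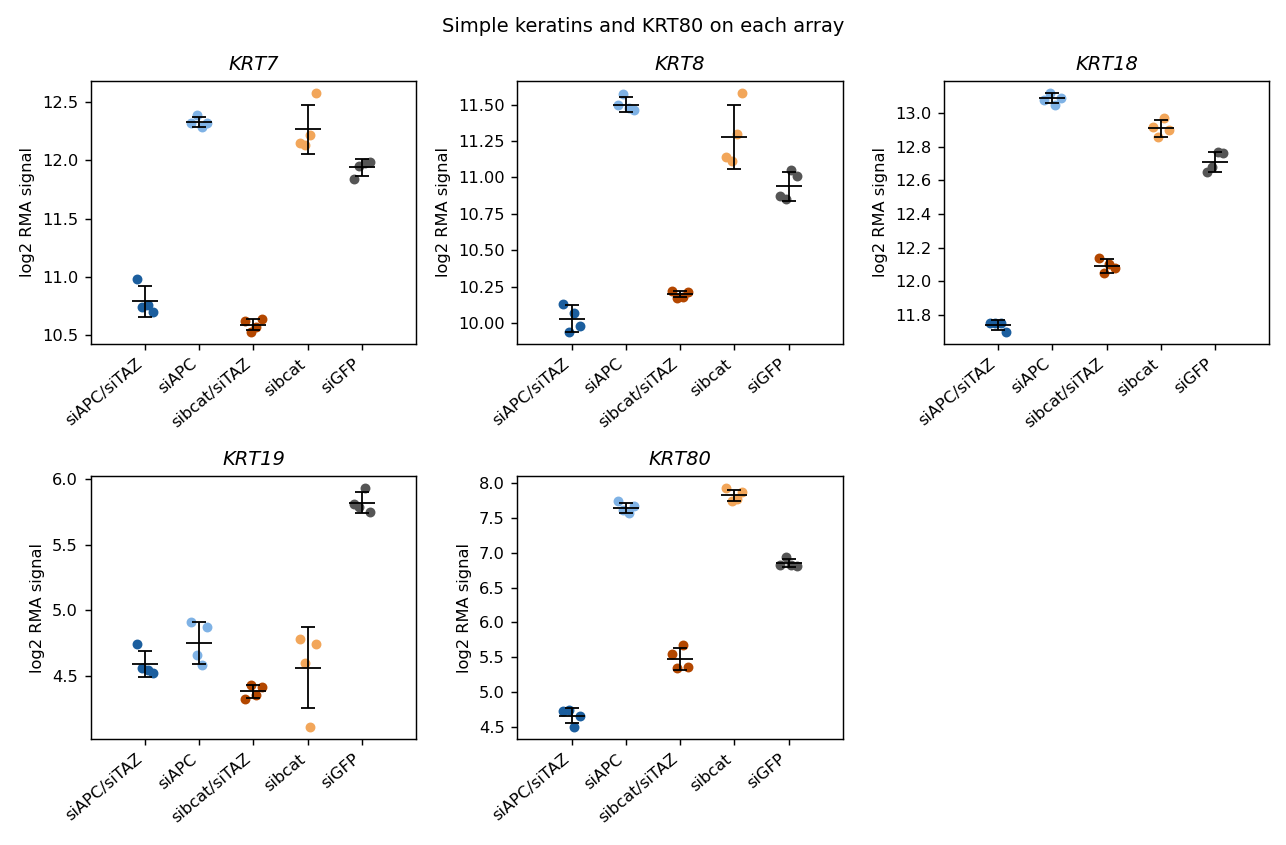
Log2 RMA signal (y axis) of KRT7, KRT8, KRT18, KRT19 and KRT80 on each array of the 5 groups (x axis), with points for single arrays and bars for the mean and SD of 4 arrays. For KRT7, KRT8, KRT18 and KRT80 the siGFP arrays lie between the single depletions above and the TAZ siRNA groups below, and for KRT19 the siGFP arrays are the highest.

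The KRT8 promoter is shown because KRT8 carries the pattern of the simple pair and the sequence was in the table used (RefSeq, GRCh38.p14). It spans the 250 bases before the gene start at chr12:52926470-52926719, minus strand, 5′ to 3′. The motifs searched on both strands were CATTCC for TEAD factors, CTTTGA for TCF factors and TGANTCA for AP-1, and they would be in capitals.
KRT8: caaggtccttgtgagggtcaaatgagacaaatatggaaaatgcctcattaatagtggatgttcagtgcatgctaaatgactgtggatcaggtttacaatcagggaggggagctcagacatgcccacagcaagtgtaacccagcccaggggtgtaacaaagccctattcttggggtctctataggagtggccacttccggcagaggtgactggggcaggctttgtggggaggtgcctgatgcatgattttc
None of these 3 motifs was found in the KRT8 window. The window follows the RefSeq gene start, and whether transcripts in these cells begin there was not tested, here and for the promoters below. Over 27305 promoters of this length, 11.9% held the TEAD motif, 11.4% the TCF motif and 6.6% the AP-1 motif. Among the 29 keratins with a promoter in the table, 3 (10.3%), 9 (31%) and 0 held them. KRT7, KRT13, KRT18, KRT23 and KRT80 were among the keratins without one, so the motifs were not searched for these genes.

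The 3 basal keratins were all lower after either single depletion and then parted when TAZ siRNA was added: KRT5 and KRT15 rose and KRT14 did not. KRT5 read 12.85, 12.58, 12.66 and 12.62 on the siAPC/siTAZ arrays and 11.93, 11.89, 11.84 and 11.85 on the siAPC arrays. The sibcat/siTAZ arrays gave 12.39, 12.30, 12.31 and 12.35, the sibcat arrays 11.44, 11.43, 11.52 and 11.94, and the siGFP arrays 12.27, 12.22, 12.27 and 12.31. KRT5, the type II basal keratin, whose values are shown to complete the class, was lower on all siAPC and sibcat arrays than on any siGFP array. It changed by -0.39 (SE 0.08, adjusted p = 0.00074) and -0.69 (SE 0.08, adjusted p = 1.5e-06) against siGFP. TAZ siRNA changed it by 0.80 (SE 0.08, adjusted p = 1.2e-07) in the siAPC background and 0.76 (SE 0.08, adjusted p = 5.2e-07) in the sibcat background, with no overlap in either. The siAPC/siTAZ arrays stood above siGFP by 0.41 (SE 0.08, adjusted p = 0.00036), while sibcat/siTAZ differed from siGFP by 0.07 (SE 0.08, adjusted p = 0.548). KRT5 moved opposite to KRT8 in all 4 of these steps.

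The KRT5 promoter, set beside that of KRT8 because the 2 type II genes moved in opposite directions, spans chr12:52520395-52520644 on the minus strand of GRCh38.p14.
KRT5: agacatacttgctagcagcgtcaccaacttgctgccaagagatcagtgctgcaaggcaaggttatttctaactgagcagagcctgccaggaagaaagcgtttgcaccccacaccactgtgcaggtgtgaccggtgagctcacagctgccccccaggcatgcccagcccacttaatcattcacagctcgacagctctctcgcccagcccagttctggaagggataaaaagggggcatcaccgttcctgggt
It held none of the 3 motifs either.

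KRT14 read 8.58, 8.44, 8.46 and 8.50 on the siAPC/siTAZ arrays and 9.04, 9.08, 8.99 and 9.03 on the siAPC arrays. It read 8.76, 8.57, 8.64 and 8.63 with sibcat/siTAZ, 8.55, 8.54, 8.52 and 9.09 with sibcat, and 9.62, 9.55, 9.67 and 9.68 with siGFP. KRT14, the type I partner of KRT5, was highest on the siGFP arrays and lower on all the others. It changed by -0.59 (SE 0.09, adjusted p = 1.9e-05) in siAPC and -0.95 (SE 0.09, adjusted p = 4.9e-08) in sibcat against siGFP. TAZ siRNA changed it by -0.54 (SE 0.09, adjusted p = 4.9e-05) in the siAPC background. In the sibcat background the difference was -0.03 (SE 0.09, adjusted p = 0.883). The sibcat D array read apart from the other 3, and without it the sibcat change against siGFP was -1.09 (adjusted p = 2.8e-12) and the TAZ siRNA change 0.11 (adjusted p = 0.09). In siAPC/siTAZ, KRT5 thus stood above and KRT14 below its siGFP level.

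KRT15 read 12.91, 12.95, 12.91 and 12.92 on the siAPC/siTAZ arrays and 12.59, 12.57, 12.50 and 12.56 on the siAPC arrays. In the sibcat/siTAZ group the values were 12.74, 12.77, 12.78 and 12.78, in the sibcat group 12.64, 12.58, 12.61 and 12.63, and in the siGFP group 13.30, 13.39, 13.37 and 13.34. KRT15, a type I keratin of basal cells and of the hair follicle bulge, had closely spaced replicates, with SDs of at most 0.04 in the 5 groups. It changed by -0.80 (SE 0.03, adjusted p = 1.1e-13) and -0.73 (SE 0.03, adjusted p = 6e-13) in siAPC and sibcat against siGFP. With TAZ siRNA it rose by 0.37 (SE 0.03, adjusted p = 1.1e-08) and 0.15 (SE 0.03, adjusted p = 0.00097), yet both combined groups stayed below siGFP.

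KRT16, the stress keratin of wounded and hyperproliferative epidermis, was the 1 keratin of 44 called in opposite directions in the 2 single depletions. KRT16 read 8.43, 8.37, 8.39 and 8.37 on the siAPC/siTAZ arrays and 9.33, 9.33, 9.27 and 9.33 on the siAPC arrays. On the sibcat/siTAZ arrays KRT16 read 7.68, 7.59, 7.50 and 7.62, on the sibcat arrays 8.05, 8.01, 8.18 and 8.39, and on the siGFP arrays 8.92, 8.85, 9.08 and 8.87. The siAPC arrays were the highest of the 5 groups, and the sibcat arrays lay below siGFP. KRT16 changed by 0.39 (SE 0.07, adjusted p = 9.6e-05) in siAPC and -0.77 (SE 0.07, adjusted p = 1.6e-08) in sibcat against siGFP, and the direct comparison of siAPC with sibcat gave 1.16 (SE 0.07, adjusted p = 5.6e-11). KRT16 was lower with TAZ siRNA in both backgrounds, with changes of -0.93 (SE 0.07, adjusted p = 6.3e-10) and -0.56 (SE 0.07, adjusted p = 1.6e-06). Signals of KRT14 and KRT16 could include each other or KRT17, since these type I genes are close paralogs, and cross-hybridisation was not tested. Nor was it tested for KRT8 and KRT18, each read from its only probe set with a single gene symbol.

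Of the 4 suprabasal keratins, KRT10 and KRT9 lay above the array median and KRT1 and KRT2 below it. KRT10 read 10.64, 10.65, 10.69 and 10.63 on the siAPC/siTAZ arrays and 10.46, 10.55, 10.51 and 10.53 on the siAPC arrays. The sibcat/siTAZ arrays gave 10.52, 10.48, 10.49 and 10.51, the sibcat arrays 10.28, 10.25, 10.36 and 10.29, and the siGFP arrays 10.42, 10.46, 10.38 and 10.51. All 20 arrays lay within a narrow span. KRT10, the type I keratin of differentiating epidermis, changed by -0.15 (SE 0.04, adjusted p = 0.00287) in sibcat against siGFP, and by 0.14 (SE 0.04, adjusted p = 0.00354) and 0.20 (SE 0.04, adjusted p = 0.00016) when TAZ siRNA was added. The 2 other KRT10 probe sets gave 0.13 and 0.08 for the siAPC background (adjusted p = 0.11 and 0.25), and -0.08 and -0.09 in sibcat against siGFP (adjusted p = 0.37 and 0.2), so these calls held for 1 probe set of 3. The TAZ siRNA call in the sibcat background held for 2 of 3, and both other probe sets were called higher in siAPC against siGFP, at 0.17 and 0.15, where the one used changed by 0.07 (SE 0.04, adjusted p = 0.146). KRT9, the keratin of palms and soles, averaged 6.26 in siAPC/siTAZ against 6.43 in siAPC and changed by -0.17 (SE 0.06, adjusted p = 0.0298). KRT1 and KRT2 averaged at most 4.42 and 3.83 in any group and were called in no comparison between 2 groups.

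**Figure D3:**
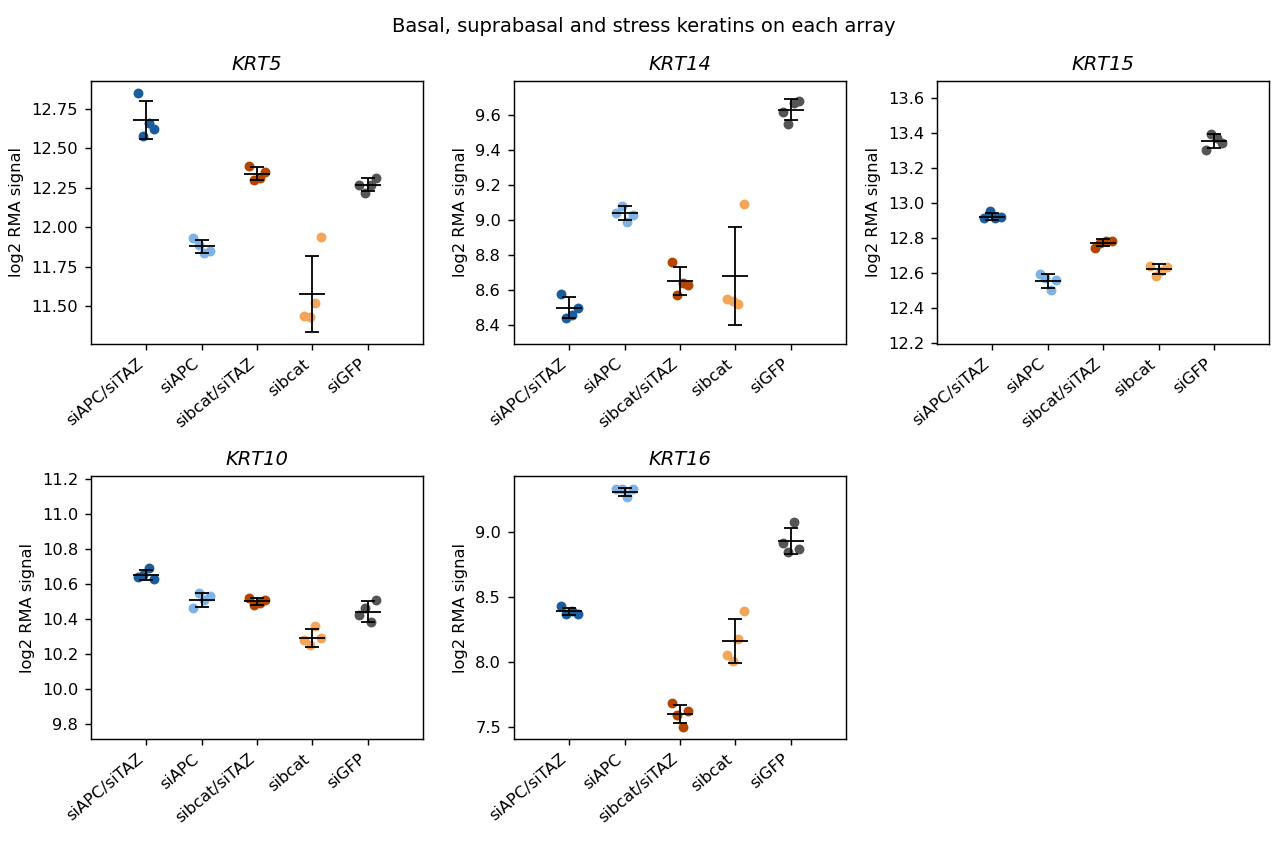
Log2 RMA signal (y axis) of KRT5, KRT14, KRT15, KRT10 and KRT16 on each array of the 5 groups (x axis), with points for single arrays and bars for the mean and SD of 4 arrays. KRT5 is highest in siAPC/siTAZ and lowest in sibcat, KRT14 and KRT15 are highest in siGFP, and KRT16 is highest in siAPC and lowest in sibcat/siTAZ.

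In both single depletions, the largest falls of any keratin against siGFP were those of KRT13 and KRT23. KRT13 read 6.71, 6.40, 6.67 and 6.77 on the siAPC/siTAZ arrays and 6.55, 6.31, 6.59 and 6.57 on the siAPC arrays. It read 4.13, 3.85, 4.96 and 3.99 with sibcat/siTAZ, 3.66, 4.04, 3.83 and 4.19 with sibcat, and 8.74, 8.75, 8.82 and 8.94 with siGFP. The siGFP arrays were far above the rest, the siAPC and siAPC/siTAZ arrays formed a middle level, and the sibcat and sibcat/siTAZ arrays lay below the array median. KRT13, the type I keratin of mucosal epithelia, changed by -2.31 (SE 0.17, adjusted p = 1.1e-09) in siAPC and -4.88 (SE 0.17, adjusted p = 2e-14) in sibcat against siGFP. The siAPC change is 4.95-fold lower, and none is given for sibcat, whose mean of 3.93 lay below the array median. The siAPC arrays stood above sibcat by 2.58 (SE 0.17, adjusted p = 3.9e-10). TAZ siRNA gave 0.13 (SE 0.17, adjusted p = 0.591) and 0.30 (SE 0.17, adjusted p = 0.216), neither of them called.

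KRT23 read 7.65, 7.74, 7.75 and 7.54 on the siAPC/siTAZ arrays and 6.05, 6.43, 6.22 and 6.21 on the siAPC arrays. In the sibcat/siTAZ group the values were 4.41, 4.14, 4.13 and 4.20, in the sibcat group 4.32, 4.18, 4.55 and 3.93, and in the siGFP group 8.82, 8.97, 9.08 and 9.17. KRT23, a type I keratin known to be inducible in cancer cell lines, fell in both depletions like KRT13 but differed from it under TAZ siRNA. It changed by -2.78 (SE 0.11, adjusted p = 6.8e-14) in siAPC and -4.76 (SE 0.11, adjusted p = 4.2e-17) in sibcat against siGFP. Adding TAZ siRNA raised it by 1.44 (SE 0.11, adjusted p = 1.3e-09) in the siAPC background, to a mean of 7.67, against 9.01 in siGFP. In the sibcat background the difference was -0.03 (SE 0.11, adjusted p = 0.905), at a level where all 8 arrays were below the array median. The difference between these TAZ siRNA effects was 1.47 (SE 0.16, adjusted p = 4.8e-07).

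KRT4 read 4.79, 4.58, 4.88 and 5.00 on the siAPC/siTAZ arrays and 6.33, 6.47, 6.28 and 6.59 on the siAPC arrays. On the sibcat/siTAZ arrays KRT4 read 5.43, 5.23, 5.06 and 5.13, on the sibcat arrays 6.20, 6.21, 6.26 and 6.37, and on the siGFP arrays 6.10, 6.13, 6.25 and 5.83. KRT4, the type II partner of KRT13 in mucosal epithelia, did not follow KRT13. It changed by 0.34 (SE 0.10, adjusted p = 0.00972) in siAPC and 0.18 (SE 0.10, adjusted p = 0.177) in sibcat against siGFP, and fell with TAZ siRNA in both backgrounds, with changes of -1.60 (SE 0.10, adjusted p = 5.7e-11) and -1.05 (SE 0.10, adjusted p = 6.6e-08). Its second probe set, with a mean of 4.81, gave -0.13 and -0.23 for these and was not called, so the KRT4 result holds for 1 probe set of 2. KRT76, of the palate, averaged at most 4.54 and was not called.

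The corneal, inner root sheath and most hair keratins had weak signals and small changes. KRT3 read 4.28, 4.75, 4.37 and 4.57 on the siAPC/siTAZ arrays and 4.49, 4.48, 4.59 and 4.63 on the siAPC arrays. The sibcat/siTAZ arrays gave 4.63, 4.28, 4.28 and 4.32, the sibcat arrays 4.50, 4.53, 4.66 and 4.60, and the siGFP arrays 4.54, 4.93, 4.71 and 4.76. The groups of KRT3, the type II corneal keratin, overlapped widely, and it changed by -0.36 (SE 0.10, adjusted p = 0.00513) in sibcat/siTAZ against siGFP. KRT12, its partner, averaged at most 2.80. All 7 inner root sheath keratins went uncalled in the comparisons between 2 groups. KRT75 read 4.96, 4.82, 4.82 and 4.77 on the siAPC/siTAZ arrays and 4.86, 4.83, 4.78 and 4.95 on the siAPC arrays. It read 5.18, 4.93, 4.77 and 4.84 with sibcat/siTAZ, 4.70, 4.84, 4.69 and 4.89 with sibcat, and 4.72, 5.21, 4.69 and 4.75 with siGFP. KRT75, a companion layer keratin placed in this class, overlapped between all pairs of groups compared. Without siGFP array B, which read highest of its group, its difference in sibcat/siTAZ against siGFP was called (adjusted p = 0.041).

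Among the 12 hair keratins, KRT33A and KRT33B moved with the simple pair. KRT33A read 4.22, 4.21, 4.04 and 4.27 on the siAPC/siTAZ arrays and 5.32, 5.14, 5.12 and 5.16 on the siAPC arrays. In the sibcat/siTAZ group the values were 3.91, 4.09, 4.13 and 4.33, in the sibcat group 5.02, 5.06, 5.07 and 4.88, and in the siGFP group 4.33, 4.21, 4.23 and 4.32. For KRT33A the siAPC and sibcat arrays lay above all others. It changed by 0.91 (SE 0.07, adjusted p = 4.3e-09) and 0.73 (SE 0.07, adjusted p = 1.3e-07) against siGFP, and by -1.0 (SE 0.07, adjusted p = 8.4e-10) and -0.89 (SE 0.07, adjusted p = 9.4e-09) with TAZ siRNA, which returned it to -0.09 (SE 0.07, adjusted p = 0.37) and -0.16 (SE 0.07, adjusted p = 0.097) from siGFP. Without sibcat/siTAZ array D the last of these was called (adjusted p = 0.011).

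KRT33B read 4.06, 3.88, 4.01 and 3.93 on the siAPC/siTAZ arrays and 5.19, 4.77, 5.03 and 5.46 on the siAPC arrays. On the sibcat/siTAZ arrays KRT33B read 4.39, 3.86, 4.13 and 4.20, on the sibcat arrays 4.99, 4.81, 4.78 and 4.78, and on the siGFP arrays 4.45, 4.46, 4.40 and 4.41. KRT33B likewise read highest in the single depletions, with a wider spread in siAPC. Its changes were 0.68 (SE 0.11, adjusted p = 5.2e-05) and 0.41 (SE 0.11, adjusted p = 0.00685) against siGFP, and -1.14 (SE 0.11, adjusted p = 5.6e-08) and -0.69 (SE 0.11, adjusted p = 6.3e-05) with TAZ siRNA. Both genes code for type I cortex keratins of hair, are neighbouring near-identical copies, and had signals around or below the array median, so their probe sets may share transcripts. KRT83 read 5.62, 5.44, 5.61 and 5.48 on the siAPC/siTAZ arrays and 5.34, 5.43, 5.51 and 5.45 on the siAPC arrays. The sibcat/siTAZ arrays gave 5.38, 5.50, 5.57 and 5.31, the sibcat arrays 5.21, 5.40, 5.43 and 5.46, and the siGFP arrays 5.64, 5.71, 5.79 and 5.55. KRT83, the hair keratin with the highest mean, overlapped between siAPC and siAPC/siTAZ and was called at -0.24 (SE 0.07, adjusted p = 0.0083) and -0.30 (SE 0.07, adjusted p = 0.0017) in siAPC and sibcat against siGFP.

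The promoters of KRT33A (chr17:41350829-41351078) and KRT33B (chr17:41369814-41370063), both on the minus strand of GRCh38.p14, are shown because these genes moved together. Capitals mark the TCF motif, which starts 248 bases before the gene start in KRT33A and 228 bases before it in KRT33B.
KRT33A: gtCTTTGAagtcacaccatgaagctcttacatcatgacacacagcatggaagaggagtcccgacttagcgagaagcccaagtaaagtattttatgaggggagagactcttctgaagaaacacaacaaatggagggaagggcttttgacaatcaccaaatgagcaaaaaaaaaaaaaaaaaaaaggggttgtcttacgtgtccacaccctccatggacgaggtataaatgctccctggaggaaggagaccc
KRT33B: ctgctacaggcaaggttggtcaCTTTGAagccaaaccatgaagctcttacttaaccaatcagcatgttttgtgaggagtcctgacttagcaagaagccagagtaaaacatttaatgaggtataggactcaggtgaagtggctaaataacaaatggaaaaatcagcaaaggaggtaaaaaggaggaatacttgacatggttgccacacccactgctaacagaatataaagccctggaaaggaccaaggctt
The 9 keratins whose window held CTTTGA were KRT2, KRT31, KRT32, KRT33A, KRT33B, KRT35, KRT37, KRT38 and KRT85. All but KRT2 are hair keratins that arose by duplication, so they are not independent, and of the 9 only KRT32, KRT33A, KRT33B and KRT37 were called in any comparison between 2 groups.

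KRT222 read 4.80, 5.07, 4.72 and 4.36 on the siAPC/siTAZ arrays and 3.48, 3.43, 3.17 and 3.08 on the siAPC arrays. It read 3.35, 2.98, 3.23 and 3.16 with sibcat/siTAZ, 2.75, 2.93, 2.67 and 2.98 with sibcat, and 3.25, 3.44, 3.33 and 3.24 with siGFP. KRT222, a truncated keratin-like gene in the type I cluster, lay at or below the array median on all 20 arrays. It changed by 1.45 (SE 0.12, adjusted p = 6.2e-09) in siAPC/siTAZ against siAPC. The sibcat background gave 0.35 (SE 0.12, adjusted p = 0.0374), and that call was lost when any 1 of sibcat arrays A or C or sibcat/siTAZ arrays A, C or D was left out. Its second probe set also rose in siAPC/siTAZ (0.83), but not in sibcat/siTAZ (0.05, adjusted p = 0.79). KRT78, a type II epidermal keratin, averaged 4.82 ± 0.14 in siAPC against 5.14 ± 0.09 in siGFP and changed by -0.33 (SE 0.09, adjusted p = 0.00851). Its second probe set gave -0.01 (adjusted p = 0.97), so that call holds for 1 probe set of 2.

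**Figure D4:**
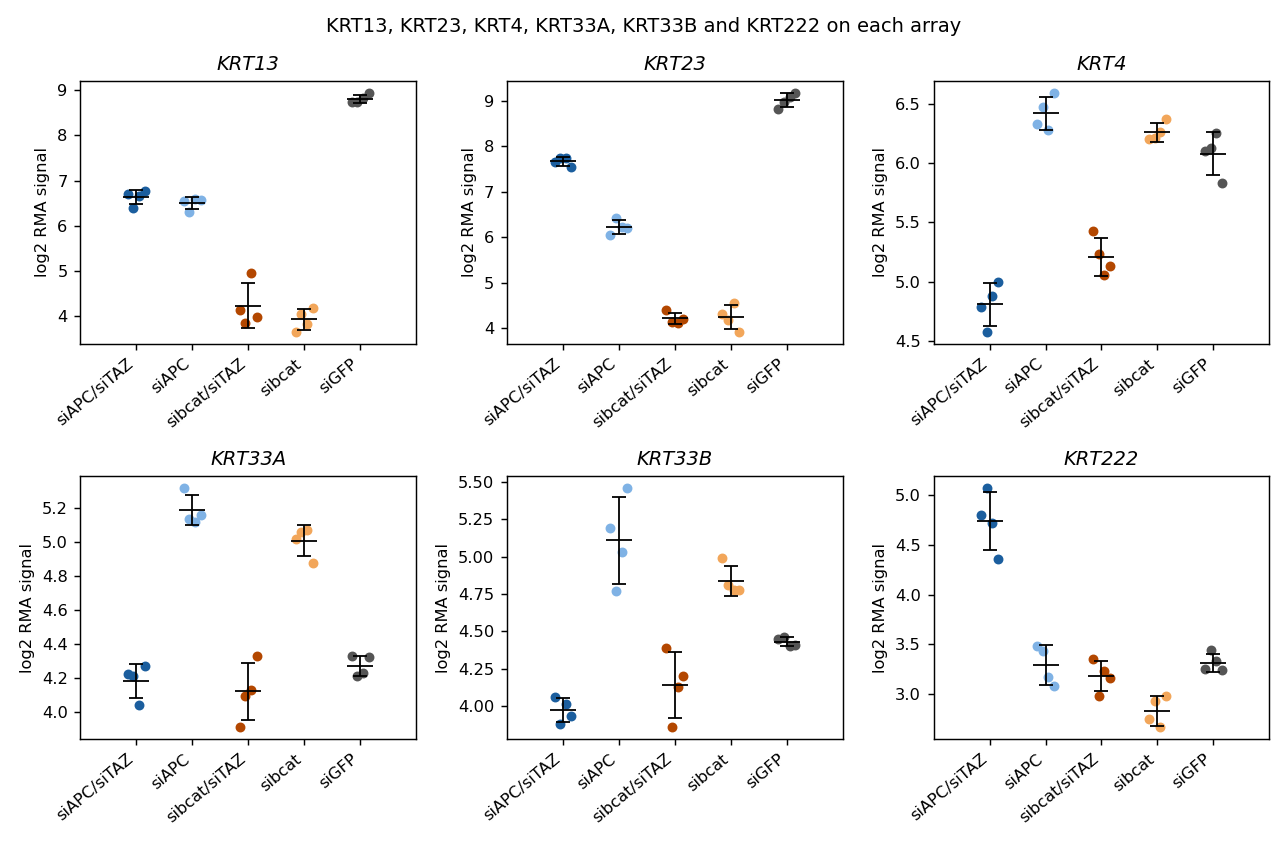
Log2 RMA signal (y axis) of KRT13, KRT23, KRT4, KRT33A, KRT33B and KRT222 on each array of the 5 groups (x axis), with points for single arrays and bars for the mean and SD of 4 arrays. KRT13 and KRT23 are lowest in the groups with beta-catenin siRNA, KRT4, KRT33A and KRT33B are higher in the single depletions than with TAZ siRNA, and KRT222 is highest in siAPC/siTAZ.

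Direct comparison of siAPC with sibcat found 10 keratins higher and 1 lower (22.7% and 2.27%), where 16.3% and 17.5% of all genes were called. The 10 were KRT5, KRT8, KRT10, KRT13, KRT14, KRT16, KRT18, KRT23, KRT32 and KRT222, and the exception was KRT78. The second probe sets of KRT78 and KRT222 were not called there (0.08 and 0.12). KRT13, KRT23 and KRT16 differed by more than 2-fold, at 2.58, 1.98 and 1.16. The sibcat means of KRT13 and KRT23 lay below the array median (3.93 and 4.25), so the sizes of their differences are uncertain. The KRT8 difference of 0.22 (SE 0.08, adjusted p = 0.0355) was lost when any 1 of arrays A, B or C of either group was left out, and was 0.32 (adjusted p = 0.0003) without sibcat array D. In siAPC/siTAZ against sibcat/siTAZ, 10 were higher and 3 lower (22.7% and 6.82%, against 20.8% and 24.2% of all genes), with KRT23 at 3.45 (SE 0.11, adjusted p = 1.6e-15) and KRT80 at -0.82 (SE 0.07, adjusted p = 6.4e-09). The sibcat/siTAZ mean of KRT23 (4.22) and the siAPC/siTAZ mean of KRT80 (4.66) lay below the array median.

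The TAZ siRNA effect differed between the siAPC and sibcat backgrounds for 10 keratins, 3 with a more positive and 7 with a more negative change in siAPC (6.82% and 15.9%, against 12.2% and 15.5% of all genes). KRT80, KRT4, KRT18, KRT8, KRT16 and KRT33B fell in both and more in siAPC, with differences of -0.65, -0.56, -0.53, -0.39, -0.36 and -0.45. The differences of KRT80, KRT4 and KRT33B rest on siAPC/siTAZ means below the array median (4.66, 4.81 and 3.97). For KRT4 the second probe set gave 0.10 (limma adjusted p = 0.68). The KRT33B call was lost in 11 of 16 fits that left out 1 array. KRT14 differed by -0.52, and KRT23, KRT222 and KRT15 by 1.47, 1.10 and 0.21. For KRT7 the difference was 0.14 (SE 0.11, adjusted p = 0.407), and for KRT5 it was 0.04 (SE 0.12, adjusted p = 0.843). WWTR1 also fell more in the siAPC background, with a difference of -0.45, and the part of that in these differences was not tested.

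**Figure D5:**
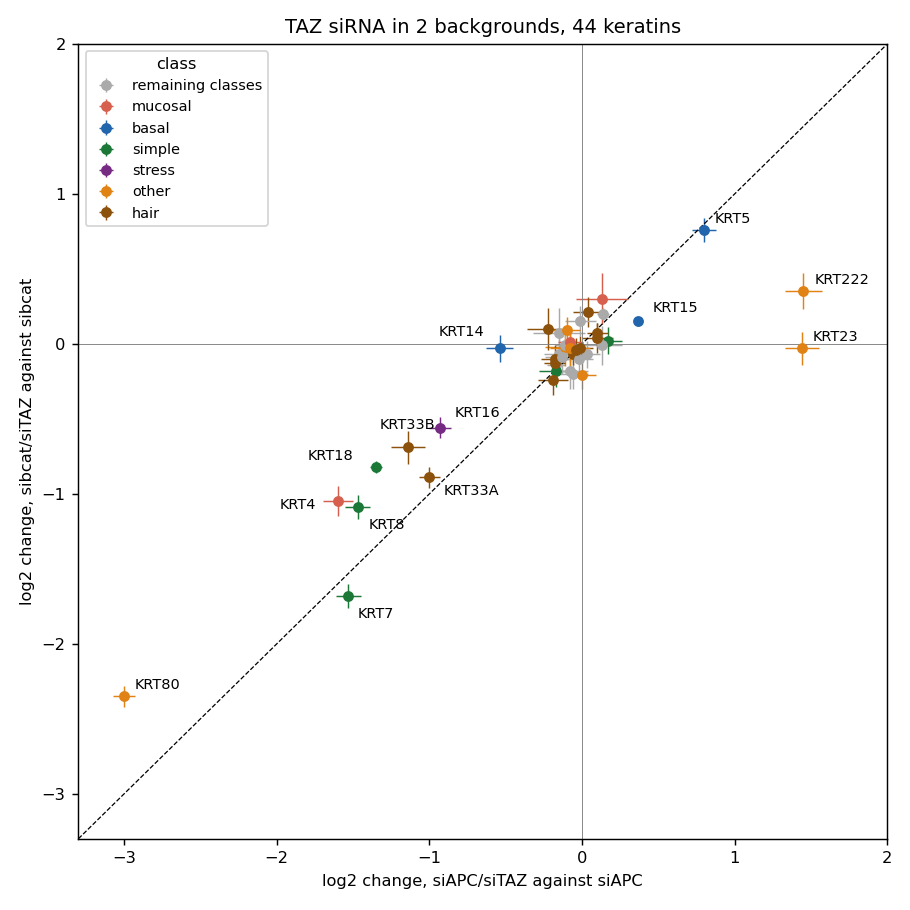
Log2 change with TAZ siRNA in the siAPC background (x axis, siAPC/siTAZ against siAPC) and in the sibcat background (y axis, sibcat/siTAZ against sibcat) for the 44 keratins, coloured by class, with SE bars and a dashed line of equality. KRT80, KRT7, KRT8, KRT18 and KRT4 lie far below zero on both axes, KRT5 lies above zero on both, and KRT23 and KRT222 lie to the right with a large change in the siAPC background.

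Seen by type, the type I keratins included those with the largest losses in the single depletions. Called changes of at least 2-fold were 3 of 24 type I (12.5%) and 0 of 20 type II (0%) in siAPC, and the same in sibcat. The shares of all genes were 3.6% and 2.44%. Among the 3 was KRT19, whose second probe set was not called (-0.12 and -0.04). With TAZ siRNA such changes were 5 of 24 (20.8%) type I and 4 of 20 (20%) type II in the siAPC background, against 4.37% of all genes. In the sibcat background they were 0 of 24 (0%) and 4 of 20 (20%), against 2.31%. Seen by class, 3 of 5 simple keratins were higher and 1 lower in each single depletion (60% and 20%, against 21.3% and 18.7% of all genes in siAPC and 21.4% and 15.7% in sibcat), with median changes of 0.37 and 0.20. Of 13 stratified keratins, 2 were higher and 4 lower in siAPC (15.4% and 30.8%) and 0 higher and 6 lower in sibcat (0% and 46.2%), with medians of -0.02 and -0.15. With TAZ siRNA, 3 of 5 simple keratins were lower in each background (60%, against 22.8% and 13.7% of all genes), with medians of -1.35 and -0.82. The stratified ones split into 3 higher and 4 lower in the siAPC background (23.1% and 30.8%, against 20.7% and 22.8% of all genes) and 3 higher and 2 lower in the sibcat background (23.1% and 15.4%, against 18% and 13.7%), with medians of -0.08 and -0.03. With so few genes in a type or class these shares are descriptions. The median of all genes was between -0.04 and 0.01 in the 6 comparisons.

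Genes that hold or modify keratin filaments are given with the same shares of all genes beside them, which were 21.3% higher and 18.7% lower in siAPC, 21.4% and 15.7% in sibcat, 20.7% and 22.8% with TAZ siRNA in the siAPC background, and 18% and 13.7% with it in the sibcat background. Of 17 measured genes for filament anchors and plakins, 2 were higher and 8 lower in siAPC (11.8% and 47.1%) and 2 higher and 12 lower in sibcat (11.8% and 70.6%) against siGFP, including DSC3, a basal desmosomal cadherin, at -1.0 and -0.79. With TAZ siRNA, 6 were higher and 6 lower in the siAPC background (35.3% each) and 5 higher and 6 lower in the sibcat background (29.4% and 35.3%). DSC3 rose by 1.18 and 0.93 there, and PPL, the plakin periplakin, changed by -0.83 in the siAPC background. Of 11 filament-associated and crosslinking genes, 2 were higher and 2 lower in siAPC (18.2% each) and 2 higher and 3 lower in sibcat (18.2% and 27.3%) against siGFP. With TAZ siRNA, 1 was higher and 5 lower in the siAPC background (9.09% and 45.5%), and 0 higher and 4 lower in the sibcat background (0% and 36.4%). TGM1, which crosslinks the cornified envelope, changed by -1.07 and -0.98 with TAZ siRNA, TGM2 by -1.31 and -1.26, and the chaperone DNAJB6, which binds KRT18, by -1.01 and -0.94.

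Of 19 regulators of keratin genes measured, 2 were higher and 13 lower in siAPC (10.5% and 68.4%, against 21.3% and 18.7% of all genes), and 1 higher and 15 lower in sibcat (5.26% and 78.9%, against 21.4% and 15.7%), each against siGFP. ELF3, an epithelial ETS factor, changed by -2.25 and -1.75. GRHL1 and GRHL3, grainyhead factors of the epidermis, changed by -1.28 and -1.55 in sibcat. With TAZ siRNA, 8 were higher and 3 lower in the siAPC background (42.1% and 15.8%, against 20.7% and 22.8%) and 7 higher and 4 lower in the sibcat background (36.8% and 21.1%, against 18% and 13.7%), with CEBPB at 0.84 and 0.29. Among 15 other intermediate filament genes, 3 were higher and 1 lower in siAPC (20% and 6.67%) and 5 higher and 0 lower in sibcat (33.3% and 0%) against siGFP. With TAZ siRNA, 1 of these was higher and 7 lower in the siAPC background (6.67% and 46.7%), and 2 were higher and 1 lower in the sibcat background (13.3% and 6.67%), beside the same shares of all genes. VIM, the mesenchymal filament protein vimentin, rose by 0.48 in siAPC and 0.45 in sibcat against siGFP and changed by -0.32 in sibcat/siTAZ against sibcat.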

How the data were processed

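Affymetrix HG-U133 Plus 2.0 arrays, 1 per sample, measured the RNA of MII cells in 5 groups of 4 biological replicates. The authors deposited log2 RMA signals: RMA is named in the submitters' processing notes, and the log2 scale was read from the values themselves. Neither the RMA version nor a genome build is given in the sources used here. RMA removes background and quantile-normalizes the arrays, so a shift common to all genes would not show, and weak signals are compressed. The table has 54675 probe sets with 2 decimals. After 62 control probe sets were left out, 41091 carried 1 gene symbol, of which 41037 matched RefSeq by Entrez identifier, 1801 carried several and 11777 were not named here. Each of 19775 genes was represented by its brightest probe set on average. The number of arrays and the signal over background limit the precision.

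Differences were tested, two-sided, with limma 3.58.1 in R 4.3.3, as a group-means model over all 20 arrays (15 residual degrees of freedom, prior 3.39, median residual SD 0.108), with Benjamini-Hochberg adjustment over all genes and calls at an adjusted p under 0.05. The fit was tested on simulated data. Tables and figures were made with pandas 2.3.3 in Python 3.11.15. Keratins given in full had a called change of at least 2-fold, or the highest mean of their class. KRT5 was added after its values were seen, as were the motifs and promoters shown and the 2-fold shares of keratins. Keratins, lists and rules were chosen with earlier results of these data known. Same-letter arrays did not deviate together (correlations -0.0879 to 0.156 over 40 pairs), so letters were not used as pairs. Replicates are labelled biological with no further detail on cultures, and each p-value sets a group difference against the spread between these arrays within the groups. Alternatives were a replicate block, only the arrays compared, a mean over probe sets, filters on signal, centring, another variance prior, each probe set and leaving out each array.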

Additional observations from a re-analysis of the deposited data

Results flagged for a closer look

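Of 95 sets of 4 arrays (19 keratins in 5 groups), 8 held an array whose gap to the nearest other array exceeded the critical share of the range in the Dixon test, where chance gives about 1 in 20. KRT13 read 6.31 on siAPC array B, and the nearest other array of that group read 6.55. KRT80 read 6.94 on siGFP array B, and the nearest other array of that group read 6.83. KRT18 read 11.70 on siAPC/siTAZ array D, and the nearest other array of that group read 11.75. KRT16 read 9.27 on siAPC array C, and the nearest other array of that group read 9.33. KRT33B read 4.99 on sibcat array A, and the nearest other array of that group read 4.81. KRT14 read 9.09 on sibcat array D, and the nearest other array of that group read 8.55. KRT3 read 4.63 on sibcat/siTAZ array A, and the nearest other array of that group read 4.32. KRT75 read 5.21 on siGFP array B, and the nearest other array of that group read 4.75. The KRT18 and KRT16 gaps are small and arise where the 3 other arrays share a value at 2 decimals. KRT14 on sibcat array D has the widest gap on the log2 scale, and that array also read highest of its group for KRT5, KRT7, KRT8 and KRT16.

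The change with TAZ siRNA differed between the siAPC and sibcat backgrounds, by limma interaction, for 10 keratins. The change in siAPC minus that in sibcat was 1.47 for KRT23, -0.65 for KRT80, -0.56 for KRT4, 1.10 for KRT222, -0.39 for KRT8, -0.53 for KRT18, -0.36 for KRT16, -0.45 for KRT33B, -0.52 for KRT14 and 0.21 for KRT15. The interaction adjusted p was smallest for KRT18 (2.1e-07) and KRT23 (4.8e-07) and largest for KRT33B (0.0443). The same difference was -0.45 for WWTR1, 1.69 for CTNNB1 and -0.67 for APC. What part these play was not tested.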

How the results depend on the processing

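The comparisons are listed in the order siAPC and sibcat against siGFP, siAPC/siTAZ against siAPC, sibcat/siTAZ against sibcat, siAPC/siTAZ and sibcat/siTAZ against siGFP, siAPC against sibcat, siAPC/siTAZ against sibcat/siTAZ, and the difference of the TAZ siRNA effects. The numbers of keratins called were 17, 16, 16, 12, 18, 18, 11, 13 and 10. With a replicate block, although letters did not pair the arrays (7 of 20 arrays matched their own letter best), they were 17, 16, 16, 12, 17, 18, 11, 13 and 10. Leaving out 1 array at a time gave 16 to 17, 16 to 16, 14 to 17, 11 to 14, 16 to 18, 15 to 17, 9 to 11, 10 to 14 and 9 to 10. Requiring 2-fold as well left 3, 3, 9, 4, 8, 6, 3, 3 and 2, and testing only genes with a mean signal of at least 7 left 7, 8, 8, 7, 8, 6, 6, 7 and 5, since the first rule is stricter and the second tests 8 keratins. The other alternatives kept each count within 1.5 times.

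Of the alternatives for single keratins, 2485 kept direction and side of the threshold, 69 lost a call, 20 gained one and 35 changed sign at 2 decimals. In 6 of the 35 a call was lost with the sign, each from another probe set of the gene: KRT7 at -0.03 in siAPC and -0.12 in sibcat against siGFP and -0.13 in siAPC/siTAZ against sibcat/siTAZ, KRT4 at 0.21 in that comparison and 0.10 for the difference of TAZ siRNA effects, and KRT222 at 0.08 in sibcat against siGFP. The cause was not tested. In the other 29 neither value was called. Of these, 22 came from leaving out 1 array: KRT13 for the difference of TAZ siRNA effects (-0.17, range -0.30 to 0.07, sign changed without sibcat/siTAZ C), KRT23 in sibcat/siTAZ against sibcat (-0.03, range -0.13 to 0.08, sign changed without sibcat/siTAZ C and sibcat C), KRT222 in siAPC against siGFP (-0.03, range -0.09 to 0.04, sign changed without siAPC C, siAPC D and siGFP B), KRT19 for the difference of TAZ siRNA effects (0.01, range -0.06 to 0.16, sign changed without siAPC/siTAZ A, siAPC B, siAPC C, sibcat A and sibcat D), KRT14 in sibcat/siTAZ against sibcat (-0.03, range -0.08 to 0.11, sign changed without sibcat D), KRT3 in siAPC/siTAZ against siAPC (-0.06, range -0.14 to 0.02, sign changed without siAPC/siTAZ A), KRT75 in siAPC against siGFP (0.01, range -0.04 to 0.14, sign changed without siAPC D, siGFP A, siGFP C and siGFP D), KRT75 in sibcat against siGFP (-0.06, range -0.11 to 0.06, sign changed without siGFP B), KRT75 in siAPC/siTAZ against siAPC (-0.01, range -0.05 to 0.02, sign changed without siAPC/siTAZ D and siAPC D) and KRT5 for the difference of TAZ siRNA effects (0.04, range -0.07 to 0.10, sign changed without siAPC/siTAZ A and sibcat D). Another 6 came from another probe set: KRT7 in siAPC against sibcat (0.06, and -0.07), KRT7 for the difference of TAZ siRNA effects (0.14, and -0.08), KRT4 in sibcat against siGFP (0.18, and -0.07), KRT222 in siAPC against siGFP (-0.03, and 0.20), KRT222 in sibcat/siTAZ against siGFP (-0.14, and 0.13) and KRT19 in siAPC against sibcat (0.20, and -0.08). The last, KRT222 in siAPC against siGFP, was -0.03 and, as a mean over its probe sets, 0.09. The KRT222 call for sibcat/siTAZ against sibcat was lost in 5 of 8 fits (adjusted p 0.061 to 0.12), without sibcat/siTAZ A, sibcat/siTAZ C, sibcat/siTAZ D, sibcat A and sibcat C in turn. The KRT3 call for siAPC/siTAZ against siGFP was lost in 6 of 8 fits (adjusted p 0.051 to 0.18), without siAPC/siTAZ A, siAPC/siTAZ C, siAPC/siTAZ D, siGFP B, siGFP C and siGFP D in turn. The KRT33B call for the difference of TAZ siRNA effects was lost in 11 of 16 fits (adjusted p 0.057 to 0.1), without siAPC A, siAPC D, siAPC/siTAZ B, siAPC/siTAZ C, siAPC/siTAZ D, sibcat/siTAZ A, sibcat/siTAZ C, sibcat/siTAZ D, sibcat B, sibcat C and sibcat D in turn. The KRT33B call for sibcat/siTAZ against siGFP was lost in 7 of 8 fits (adjusted p 0.061 to 0.19), without sibcat/siTAZ B, sibcat/siTAZ C, sibcat/siTAZ D, siGFP A, siGFP B, siGFP C and siGFP D in turn. The KRT7 call for siAPC/siTAZ against sibcat/siTAZ was lost in 5 of 8 fits (adjusted p 0.056 to 0.16), without siAPC/siTAZ A, siAPC/siTAZ C, sibcat/siTAZ A, sibcat/siTAZ B and sibcat/siTAZ C in turn. The KRT8 call for siAPC against sibcat was lost in 6 of 8 fits (adjusted p 0.054 to 0.14), without siAPC A, siAPC B, siAPC C, sibcat A, sibcat B and sibcat C in turn. Calls appeared without 1 array for KRT19 in sibcat/siTAZ against sibcat (without sibcat C, adjusted p = 0.0026), KRT3 in sibcat/siTAZ against sibcat (without sibcat/siTAZ A, adjusted p = 0.032), KRT33A in sibcat/siTAZ against siGFP (without sibcat/siTAZ D, adjusted p = 0.011), KRT33B in siAPC against sibcat (without siAPC B, adjusted p = 0.0067), KRT7 in siAPC against sibcat (without sibcat D, adjusted p = 0.04) and KRT75 in sibcat/siTAZ against siGFP (without siGFP B, adjusted p = 0.041). Signals near the array median limit what can be said of the 24 keratins that lay below it in all groups.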
